A study of Mus musculus with 8 samples.

Results

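The TAM genes encode the receptor tyrosine kinases TYRO3, AXL and MERTK and the bridging ligands GAS6 and protein S (*Pros1*). They are 5 of the 20308 genes in the expression data of CD11b+ brain cells from control and CSF1 OE mice, and all 5 had enough reads to be among the 13407 genes tested. *Axl* brought the family up, because it had the lowest p in an earlier comparison of these genotypes, so its difference is described here with no test. The other 4 were taken for their role and are tested. The receptors sit on phagocytes, and the ligands link them to phosphatidylserine, a lipid that dying cells expose on their surface. In the adult brain MERTK is the TAM receptor of resting microglia, whereas AXL is known to rise in microglia exposed to inflammation or interferon. Both are known to act in the clearance of dead cells and to dampen the response to type I interferon.

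Each of the 8 libraries came from 1 mouse, 4 of them control and 4 CSF1 OE, all on a C57Bl/6 X CD1 F1 background and aged p14 or p15. In CSF1 OE mice a TRE/tTA transgene makes secreted CSF1, the growth factor that microglia need, in a subset of GFAP+ cells, so the pulled-down cells are not its labelled source. Which transgene alleles the control mice carried, and the sexes, are not given in the sources used here. Cells were pulled from the right hemisphere with CD11b beads after myelin was removed with Percoll. Library totals ran from 12053280 to 15475488 counts. Values are given in CPM, the counts of a gene relative to the library total after scaling with TMM factors, and 3 counts correspond to between 0.177 and 0.266 CPM. All 9 microglia markers examined, *Itgam* (CD11b) among them, were present in every library. *Csf1* itself, from any source in these cells, overlapped between genotypes (282 ± 98.7 CPM in control against 322 ± 107 CPM in CSF1 OE, SD, n = 4 each, log2 fold change 0.19, standard error 0.33, adjusted p = 0.796 from edgeR). Its receptor *Csf1r* also did not pass (log2 fold change 0.05, adjusted p = 0.914 from edgeR).

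Control mouse 1934 and CSF1 OE mouse 2019 stood apart in cell-type markers. The summed microglia markers of mouse 1934 were 20064 CPM, against 30385 to 34569 CPM in the other control mice, and its summed oligodendrocyte markers were the highest of all 8, at 5924 CPM. Mouse 2019 had the reverse, with the highest microglia sum, 37702 CPM, and the lowest oligodendrocyte sum, 1542 CPM. The log2 fold changes of the 5 genes are given with and without each of these mice. In this bulk RNA, fewer cells of a type and less RNA per cell cannot be told apart.

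The 3 receptors are related in sequence, and reads of one could in principle be assigned to another. A stretch of 69 coding bases around the kinase motif that defines the family is printed 5′ to 3′ for each receptor, because it shows how alike the receptor genes are within the kinase domain. Capitals mark bases identical in all 3.
Axl: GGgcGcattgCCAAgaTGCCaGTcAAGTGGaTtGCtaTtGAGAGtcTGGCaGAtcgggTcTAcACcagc
Mertk: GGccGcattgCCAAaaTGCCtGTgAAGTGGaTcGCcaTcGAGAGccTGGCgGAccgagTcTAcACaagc
Tyro3: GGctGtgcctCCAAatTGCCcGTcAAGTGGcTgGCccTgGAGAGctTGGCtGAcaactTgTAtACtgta
The *Axl* stretch lies in exon 18 of 20 (chr7:25761417-25761485, minus strand), that of *Mertk* in exon 17 of 19 (chr2:128793025-128793093, plus strand) and that of *Tyro3* in exon 18 of 20 (chr2:119812882-119812950, plus strand, all GRCm38 with GENCODE M21). *Axl* and *Mertk* share 57 of the 69 bases (82.6%), *Mertk* and *Tyro3* 44 (63.8%) and *Axl* and *Tyro3* 40 (58.0%). Even so, no run of 25 bases is shared between any of the 5 genes, and the longest run common to any receptor pair is 14 bases. Runs of 25 bases shared with genes outside the family make up 0.876% of *Mertk*, 0.515% of *Gas6* and 0.148% of *Pros1*, and none were found in *Axl* or *Tyro3*.

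*Axl* was the member with the large difference between genotypes. The gene lies at chr7:25757273-25788705 on the minus strand. It had 29.0, 27.6, 24.4 and 27.1 CPM in control mice 1827, 1872, 1874 and 1934, and 142, 128, 141 and 85.6 CPM in CSF1 OE mice 1931, 1932, 1936 and 2019. Mouse 2019, the lowest of its genotype, was still well above the highest control mouse, and the spread among CSF1 OE mice was the wider (coefficient of variation 21.3% against 7.04%). The means were 27.0 ± 1.90 CPM and 124 ± 26.4 CPM, a 4.59-fold difference (log2 fold change 2.20, standard error 0.16). No interval is given, because *Axl* was picked for this difference, and such a choice can overstate its size. Without mouse 2019 the log2 fold change was 2.34, and without mouse 1934 it was 2.21. These values stem from 323 to 2071 counts per library, so counting error is small beside the difference between genotypes. With microglia markers as a term, an alternative added after seeing the data, the log2 fold change was 2.20 (standard error 0.15), and with oligodendrocyte markers 2.27 (standard error 0.14).

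*Mertk*, at chr2:128698956-128802894 on the plus strand, was not called different and overlapped between genotypes. Its levels were 599, 667, 697 and 432 CPM in control mice 1827, 1872, 1874 and 1934, and 606, 485, 483 and 680 CPM in CSF1 OE mice 1931, 1932, 1936 and 2019. Mouse 1934, with the lowest microglia markers, was also the lowest in *Mertk*. The means were 599 ± 119 and 563 ± 96.7 CPM (log2 fold change -0.09, standard error 0.18, 95% interval -0.49 to 0.31, adjusted p = 0.819 from edgeR). Without mouse 1934 the log2 fold change was -0.20, and without mouse 2019 it was -0.19. The interval leaves room for a modest difference in either direction, but none as large as that of *Axl*.

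*Tyro3*, the TAM receptor best known from neurons, lies at chr2:119797733-119818104 on the plus strand, 8.88 Mb before *Mertk*. It had 21.2, 21.0, 25.9 and 38.2 CPM in control mice 1827, 1872, 1874 and 1934, and 16.4, 27.4, 26.0 and 10.1 CPM in CSF1 OE mice 1931, 1932, 1936 and 2019. Mouse 1934 had the highest value and mouse 2019 the lowest, the reverse of their microglia sums, and 2 of the 4 CSF1 OE mice lay below every control mouse. The means were 26.6 ± 8.08 and 20.0 ± 8.19 CPM (log2 fold change -0.41, standard error 0.32, 95% interval -1.13 to 0.31, adjusted p = 0.551 from edgeR). Without mouse 1934 the log2 fold change was -0.17, and without mouse 2019 it was -0.19. Summed oligodendrocyte markers, 6 of 6 tested, ran from 2819 to 5924 CPM in control and from 1542 to 4835 CPM in CSF1 OE mice. Summed neuron markers, 7 of 7 tested, ran from 58.3 to 267 CPM and from 32.9 to 147 CPM, with mouse 1934 highest and mouse 2019 lowest. No marker of either list was at 0 in any library. With oligodendrocyte markers as a term, again added after seeing the data, the log2 fold change of *Tyro3* was -0.13 (standard error 0.14, adjusted p = 0.606 from edgeR).

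*Gas6* encodes the ligand that binds all 3 receptors and lies at chr8:13465374-13494490 on the minus strand. Control mice 1827, 1872, 1874 and 1934 had 503, 490.4, 433 and 415 CPM, and CSF1 OE mice 1931, 1932, 1936 and 2019 had 414, 419, 387 and 439 CPM. The genotypes overlapped, with CSF1 OE mouse 1931 (414 CPM) just below the lowest control mouse (415 CPM) and mouse 1936 (387 CPM) further below it. Of the 5 genes, it varied least among CSF1 OE mice (coefficient of variation 5.22%), and the means were 460.2 ± 43.0 and 415 ± 21.6 CPM (log2 fold change -0.15, standard error 0.095, 95% interval -0.37 to 0.065, adjusted p = 0.460 from edgeR). Without mouse 1934 the log2 fold change was -0.19, and without mouse 2019 it was -0.18. The library kit does not mark strand, and *Tmem255b* overlaps *Gas6* exons on the opposite strand. Reads from the shared bases cannot be told apart, and *Tmem255b* was estimated at no more than 1.44 CPM in any library.

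*Pros1* encodes protein S, better known as an anticoagulant in plasma, which binds MERTK and TYRO3. The gene lies at chr16:62854307-62929346 on the plus strand. Its levels were 279, 291, 265 and 172 CPM in control mice 1827, 1872, 1874 and 1934, and 295, 225, 216 and 388 CPM in CSF1 OE mice 1931, 1932, 1936 and 2019. Mouse 1934 was the lowest and mouse 2019 the highest, in the same order as their microglia sums, and the genotypes overlapped. The means were 252 ± 54.4 and 281 ± 79.6 CPM (log2 fold change 0.16, standard error 0.22, 95% interval -0.35 to 0.66, adjusted p = 0.748 from edgeR). Without mouse 2019 the log2 fold change turned to -0.04, and without mouse 1934 it was 0.03. With the added term for microglia markers it was 0.11 (standard error 0.088, adjusted p = 0.460 from edgeR), and with that for oligodendrocyte markers -0.07.

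**Figure D1:**
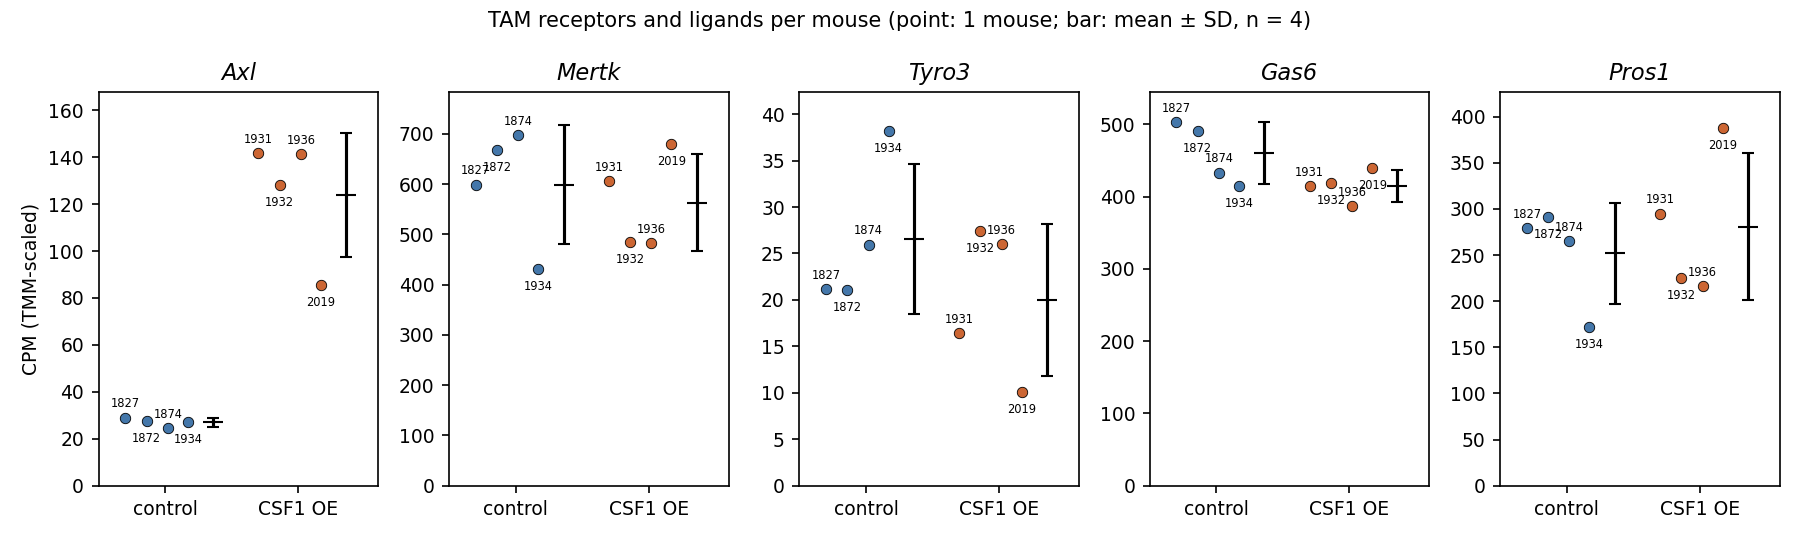
CPM of the 5 TAM genes in each mouse, with 1 panel per gene, control mice in blue, CSF1 OE mice in orange, and the mean ± SD (n = 4) beside the points. The 4 CSF1 OE mice lie between 85.6 and 142 CPM for *Axl*, all above the control mice, while the genotypes overlap in the other 4 genes.

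Of the 4 genes taken for their role, none was called by edgeR (adjusted p under 0.05 with a fold change below 0.7 or above 1.43), DESeq2 or limma, and 0 had an unadjusted p under 0.05 from edgeR. Over all genes tested the share called was 0.440%, made up of 0.388% higher and 0.0522% lower. The genotypes overlapped in all 4, and did not overlap in 10.3% of all genes tested. How many genes were called depended on single libraries: 59 with all 8, 164 without control mouse 1827, 3 without 1872, 3 without 1874 and 10 without 1934, and 4, 18, 8 and 72 without CSF1 OE mice 1931, 1932, 1936 and 2019.

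The animal numbers of control mouse 1934 and CSF1 OE mice 1931, 1932 and 1936 are close together, and the labels name no batch. Among these 4, *Axl* had 27.1 CPM in the control mouse against a mean of 137 CPM in CSF1 OE. Among the other 4 it had a mean of 27.0 CPM in control mice against 85.6 CPM in the CSF1 OE mouse. *Axl* was higher in CSF1 OE within both ranges, 5.05-fold and 3.17-fold. Since its levels did not overlap between genotypes, any such split must give this direction. *Tyro3* was lower in CSF1 OE within both, at 0.609 and 0.444 of the control level, and *Pros1* higher within both, at 1.43 and 1.39 times. *Mertk* stood at 1.21 and 1.04 times and *Gas6* at 0.980 and 0.924 times the control level. With a term for the range in the edgeR fit, *Tyro3* was called lower (log2 fold change -0.92, standard error 0.21, adjusted p = 0.0321) and the log2 fold change of *Mertk* turned positive (0.17, adjusted p = 0.382). That of *Pros1* was 0.50 (adjusted p = 0.0364), under the fold threshold. Each range holds a single mouse of one genotype, and these single mice are 1934 and 2019, whose cell markers stood apart, so range and markers cannot be told apart.

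To set the genes beside each other, CPM were divided by the length in kilobases of the longest protein-coding transcript. In control mice *Gas6* was the most abundant (181 ± 16.9 CPM per kb, SD, n = 4), followed by *Mertk* (139 ± 27.6) and *Pros1* (76.2 ± 16.5). *Axl* (6.33 ± 0.446 CPM per kb) and *Tyro3* (5.96 ± 1.81) stood far lower and did not differ from each other beyond their spread, *Axl* being the higher in 2 of 4 control mice. In CSF1 OE mice *Axl* was at 29.1 ± 6.19 CPM per kb and above *Tyro3* (4.48 ± 1.84) in 4 of 4. *Gas6* was above *Mertk*, *Mertk* above *Pros1* and *Pros1* above *Axl* in all 8 mice. The ranges of *Gas6* and *Mertk*, and of *Mertk* and *Pros1*, were apart in control mice and overlapped in CSF1 OE mice.

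**Figure D2:**
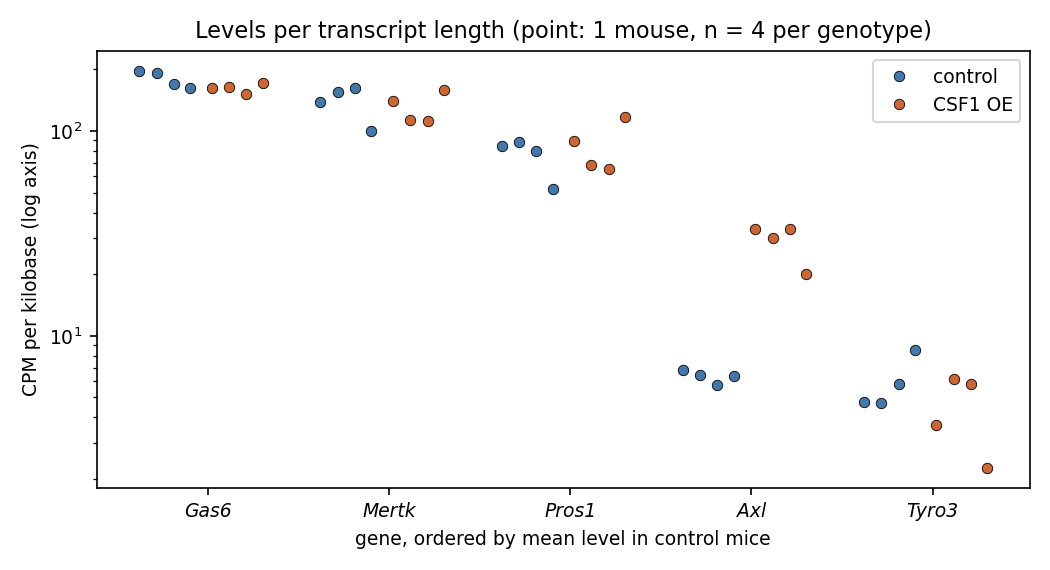
CPM per kilobase of transcript (log axis) of the 5 TAM genes, ordered from *Gas6* to *Tyro3*, in control (blue) and CSF1 OE (orange) mice, 1 point per mouse. *Axl* and *Tyro3* share the bottom of the scale in control mice, and *Axl* lies between *Pros1* and *Tyro3* in CSF1 OE mice.

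*Mertk* remained the main TAM receptor transcript in both genotypes. Of the summed receptor levels per kb, *Mertk* made up 91.5% ± 3.003 in control and 79.2% ± 5.99 in CSF1 OE mice (SD, n = 4 each). *Axl* made up 4.50%, 3.89%, 3.30% and 5.51% in control mice 1827, 1872, 1874 and 1934, and 18.7%, 20.2%, 21.9% and 11.1% in CSF1 OE mice 1931, 1932, 1936 and 2019. The *Axl* share did not overlap between genotypes, as follows from its level. *Tyro3* made up 4.19% ± 2.17 and 2.83% ± 1.39. Per kb there were 15.8 to 28.3 *Mertk* transcripts for each *Axl* transcript in control mice, and 3.39 to 7.87 in CSF1 OE mice. The summed level of the 3 receptors overlapped, at 115 to 174 CPM per kb in control against 149 to 180 CPM per kb in CSF1 OE mice. Of the ligands, *Gas6* exceeded *Pros1* per kb in every mouse, by 2.12 to 3.13 times in control and by 1.47 to 2.42 times in CSF1 OE mice.

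The lowest *Mertk* and *Pros1* values were in the mouse with the lowest microglia markers, and the lowest *Axl* value was not. Per 1000 CPM of the 9 summed microglia markers, *Pros1* was nearly constant among control mice, 8.09 to 8.72 CPM, and its coefficient of variation there was 3.19% instead of 21.6%. In CSF1 OE mice it was 8.12 to 10.3 CPM on this scale. *Mertk* was at 20.3 ± 2.46 CPM in control against 18.6 ± 1.14 CPM in CSF1 OE mice per 1000 CPM of markers, with coefficients of variation of 12.1% and 6.13%. *Axl* was at 0.948 ± 0.269 and 4.27 ± 1.36 CPM on the same scale, a ratio of 4.51, and the genotypes stayed apart. Among control mice its coefficient of variation was 28.4% on this scale instead of 7.04% in CPM, with mouse 1934 at 1.35 and the other 3 at 0.798 to 0.839, and in CSF1 OE mice it was 31.8% instead of 21.3%. *Gas6* also spread more on this scale than in CPM, at 15.9 ± 3.17 CPM in control mice, where mouse 1934 reached 20.7. *Tyro3* did so too, at 0.995 ± 0.617 and 0.704 ± 0.359 CPM. The microglia list itself did not separate the genotypes: of its 9 markers 5 were higher and 4 lower in CSF1 OE, none was called by edgeR, and 1 had an unadjusted p under 0.05.

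**Figure D3:**
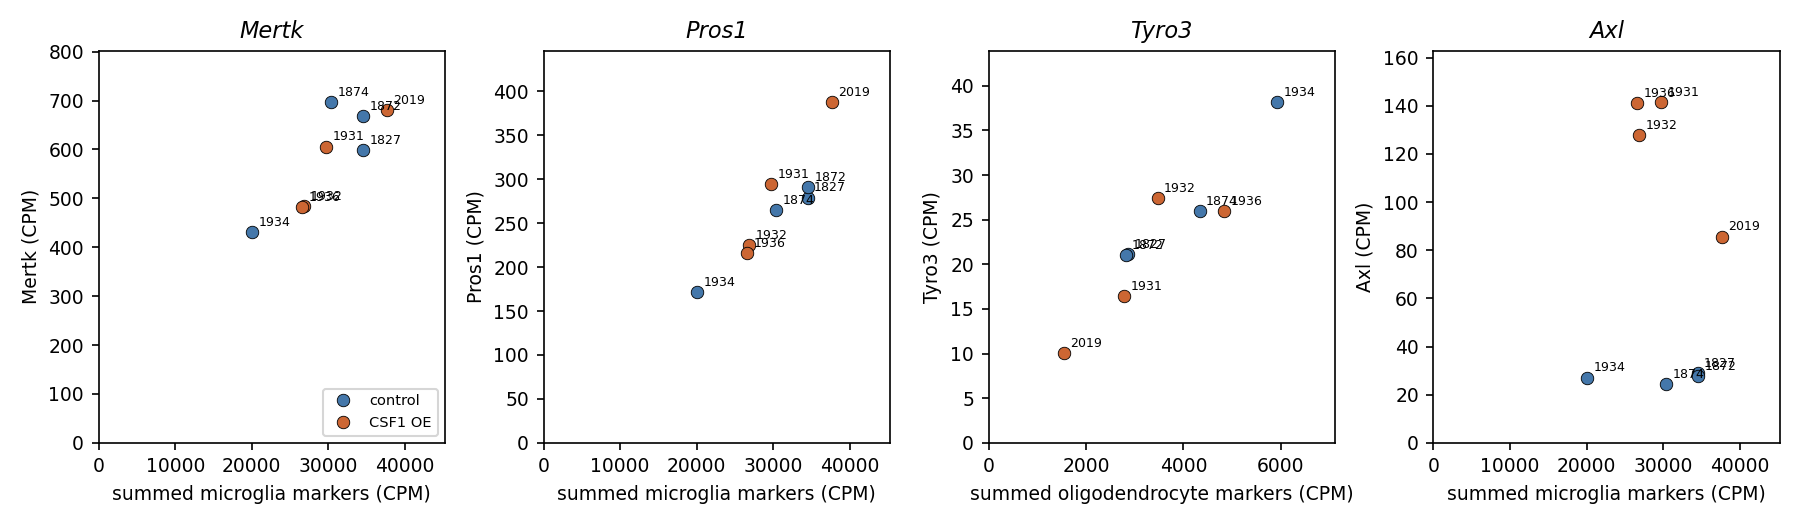
CPM of TAM genes against summed microglia or oligodendrocyte markers (CPM) per mouse, control in blue and CSF1 OE in orange. *Mertk* and *Pros1* are lowest in control mouse 1934, where microglia markers are lowest, and *Tyro3* is highest there, where oligodendrocyte markers are highest.

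No gene of the marker lists of other cell types given here was called by edgeR. All 7 border macrophage markers tested were lower in CSF1 OE mice, 5 of them with an unadjusted p under 0.05, as had 16.5% of all genes tested (median log2 fold change -0.47), and their sum overlapped, at 1557 to 2477 CPM in control against 1252 to 1871 CPM in CSF1 OE mice. All 7 endothelial markers tested were lower as well, 2 with an unadjusted p under 0.05 (median -0.67), with overlapping sums of 621 to 1061 CPM in control against 299.6 to 731 CPM in CSF1 OE mice. Mouse 1934 was the highest and mouse 2019 the lowest, and without them the sums were 621 to 958 and 489 to 731 CPM. Red blood cell markers, 3 of 3 lower, summed to 188 to 669 CPM against 29.4 to 313 CPM. Again mouse 1934 was the highest and mouse 2019 the lowest, and without them the sums were 188 to 585 and 35.2 to 313 CPM. No marker of these 3 lists was at 0 in any library. Monocyte markers, 4 of 5 in the data, 1 higher and 3 lower, summed to 13.4 to 27.0 CPM in control against 23.2 to 43.2 CPM in CSF1 OE mice. T and NK cell markers, 4 of 5 in the data, summed to at most 0.832 CPM in control against 2.05 CPM in CSF1 OE mice. Nearly all of that sum was *Klrb1c*, at 4.30 to 25 counts per library, while *Cd3e*, *Cd3g* and *Nkg7* had 0 to 2 counts and were not tested. The part of these cells in the TAM values was not tested.

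The further genes of the pathway were taken by function, and 62 of them were in the data. Of the 57 tested, 28 were higher and 29 lower in CSF1 OE mice (median log2 fold change -0.01, against -0.03 over all genes tested), and none was called by edgeR. At an unadjusted p under 0.05 from edgeR there were 5 higher and 3 lower, 14.04% of those tested against 16.5% of all genes tested. Among the pathway genes limma called 0 and DESeq2 called 2, where over all genes they called 105 and 427. The genotypes did not overlap in 5 of the 57, 3 higher and 2 lower, which is 8.77% against 10.3% of all genes tested, of which 6.84% were higher and 3.45% lower without overlap. The 8 called once the range of animal numbers entered the fit were *Havcr2*, higher, and *Bai1*, *Bcar1*, *Edil3*, *Megf10*, *Ptk2*, *Timp3* and *Tub*, lower. In that fit 1274 of all 13407 genes tested were called, and 23.8% of those called were higher.

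Receptor shedding cuts the outer part of AXL and MERTK from the cell. Of its 5 genes, all tested, 3 were higher and 2 lower, and none was called. The widest positive log2 fold change was that of *Rhbdf2*, a rhomboid-like protein that carries the sheddase ADAM17 to the cell surface (32.8 ± 4.39 CPM in control against 50.9 ± 12.2 CPM in CSF1 OE, log2 fold change 0.63, standard error 0.18, adjusted p = 0.139 from edgeR, 0.0308 from DESeq2). *Timp3*, which inhibits the sheddases, was at the other end (log2 fold change -0.49, standard error 0.32, adjusted p = 0.472 from edgeR). The genotypes did not overlap in 3 of these 5 genes, against 10.3% of all genes tested. The same 3 had an unadjusted p under 0.05 from edgeR, against 16.5% of all genes tested. They were *Rhbdf2* and the sheddase *Adam10*, both higher, and *Rhbdf1*, lower. *Adam10* (426 ± 54.8 and 523 ± 30.6 CPM) and *Rhbdf1* (23.4 ± 2.06 and 18.3 ± 1.96 CPM) were named after their values were seen. None of the 3 passed the edgeR test.

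Of 9 genes in the interferon receptor and SOCS arm, through which TAM receptors restrain cytokine signalling, 7 were tested, 5 were higher and 2 lower, and none was called. *Socs3*, a feedback inhibitor of cytokine signalling, had the lowest log2 fold change of the list (-0.42, standard error 0.22, adjusted p = 0.372 from edgeR). *Socs1*, the other inhibitor of the list, had the highest (0.31, standard error 0.44, adjusted p = 0.747 from edgeR), close to the detection limit at 1.05 ± 0.183 CPM in control against 1.32 ± 0.834 CPM in CSF1 OE mice.

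Other receptors and bridges for phosphatidylserine numbered 16, of which 14 were tested, 6 higher and 8 lower. *Havcr2*, which encodes the phosphatidylserine receptor TIM-3, had the lowest adjusted p of the pathway, with 125 ± 19.1 CPM in control against 218 ± 47.8 CPM in CSF1 OE mice (log2 fold change 0.80, standard error 0.17, adjusted p = 0.0734 from edgeR, 0.00138 from DESeq2). It did not overlap between genotypes. *Megf10*, an engulfment receptor best known from astrocytes, lay at the other end (log2 fold change -0.61, standard error 0.37, adjusted p = 0.439 from edgeR).

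In the 4 remaining lists and the further ligands no gene was called either. Among the engulfment signalling genes, which link the receptors to the cytoskeleton, 7 were higher and 4 lower of 11, from *Plcg2* (log2 fold change 0.30) to *Bcar1* (-0.57). Of the 9 genes of the LXR and PPAR arm, nuclear receptors known to induce *Mertk* after a cell has eaten and some of their targets, 4 were higher and 5 lower, from *Pparg* (0.48, at no more than 1.09 CPM in any mouse) to *Mylip* (-0.36). Of the 6 scramblases and flippases, which expose phosphatidylserine or turn it back inward, 1 was higher and 5 lower, from *Tmem30a* (0.05) to *Xkr8* (-0.40). The flippase *Atp11a*, named after its values were seen, was lower without overlap (64.9 ± 5.25 and 55.7 ± 1.25 CPM) and did not pass the test. The vitamin K enzymes that the ligands need to bind phosphatidylserine ran from *Vkorc1* (0.22) to *Ggcx* (-0.18). Of the further proposed ligands *Lgals3*, encoding galectin-3, had 5.32 ± 1.66 and 11.4 ± 5.85 CPM (log2 fold change 1.10, standard error 0.36, adjusted p = 0.186 from edgeR), and *Tub* had a log2 fold change of -0.32.

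**Figure D4:**
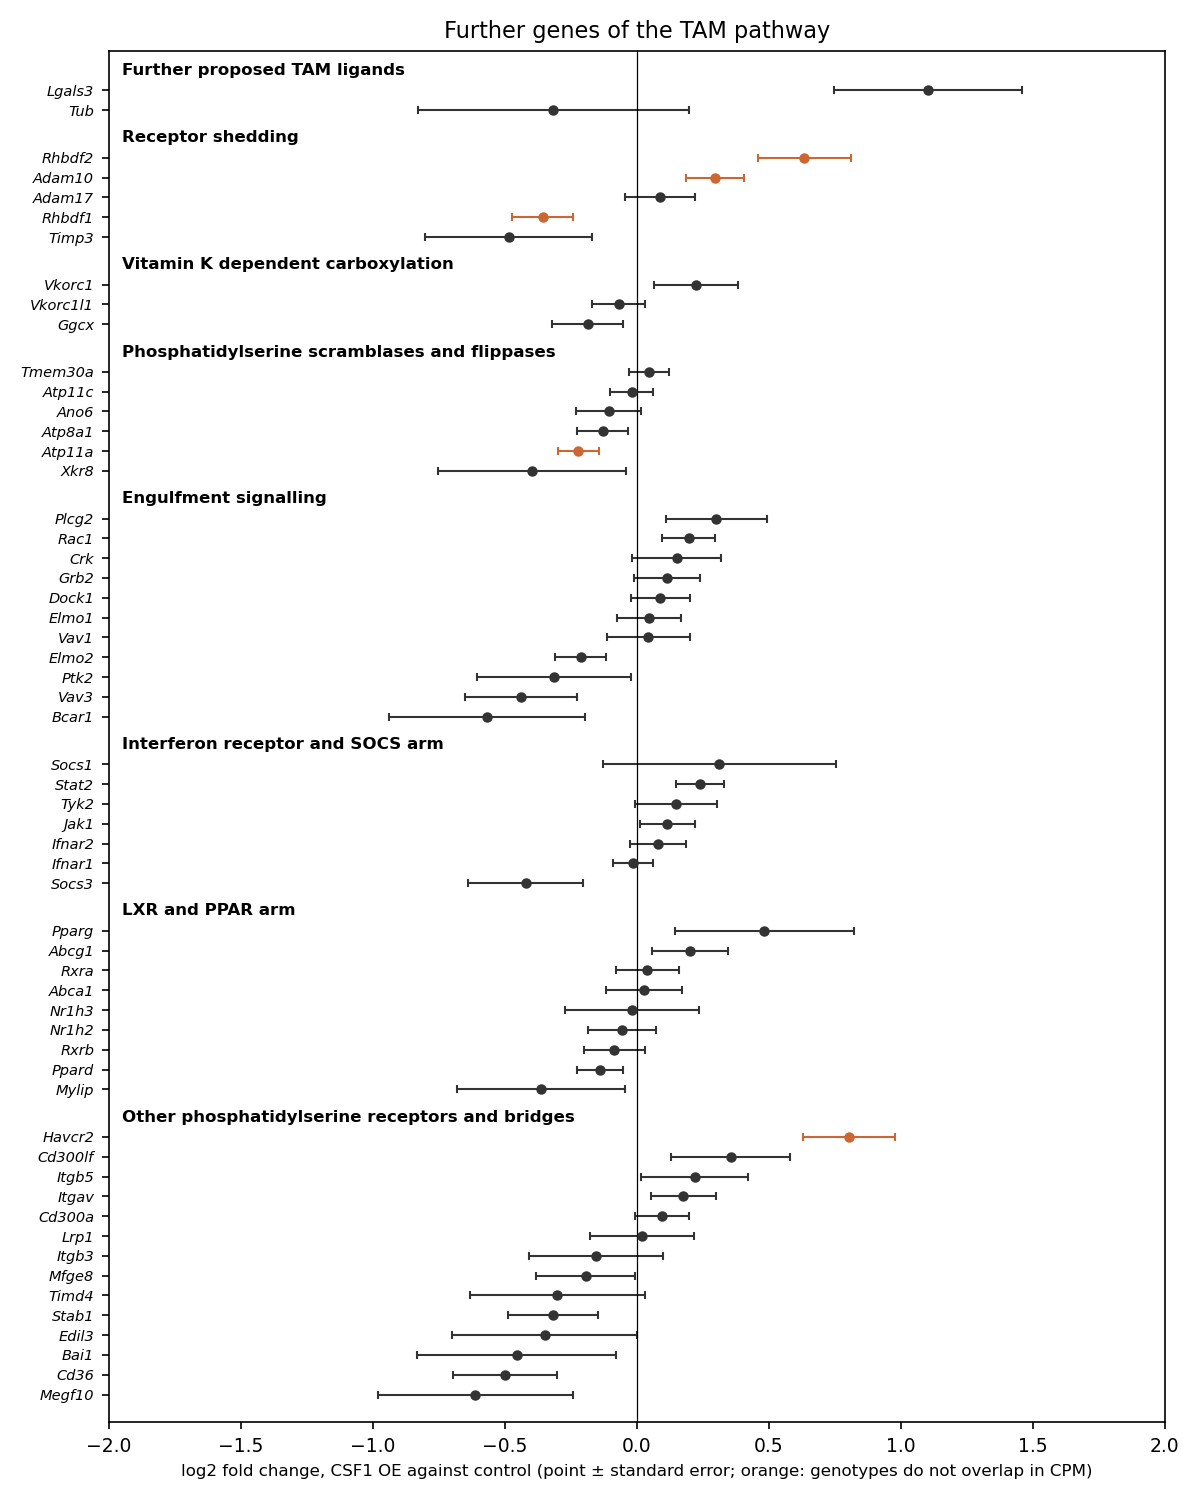
Log2 fold change, CSF1 OE against control, with its standard error, of the 57 tested genes of the pathway beyond the TAM genes, grouped by list, with the 5 genes whose genotypes do not overlap in orange. Values range from -0.61 (*Megf10*) to 1.10 (*Lgals3*).

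The genes whose pattern over the 8 mice lay nearest to that of *Axl* were *Zbp1*, *Ptpn7*, *I830012O16Rik*, *Unc5cl* and *Isg15*. Likeness was the root mean square difference in log2 CPM, each gene taken relative to its control mean, and since *Axl* differs between genotypes, any gene near it must as well. The difference was 0.338 for *Zbp1*, a sensor of Z-form nucleic acid, 0.372 for *Ptpn7*, a phosphatase of blood cells, 0.388 for *I830012O16Rik*, 0.390 for *Unc5cl* and 0.394 for *Isg15*, a ubiquitin-like protein induced by interferon, against a median of 1.59 over 13406 genes. Their means were 1.08 to 3.14 CPM in control against 4.52 to 11.3 CPM in CSF1 OE mice. *Axl* was 2.39, 2.24, 2.38 and 1.66 above its control mean on the log2 scale in CSF1 OE mice 1931, 1932, 1936 and 2019. Of the 5 genes, *Ptpn7*, *I830012O16Rik*, *Unc5cl* and *Isg15* were also lowest of the CSF1 OE mice in mouse 2019. The genes were picked for likeness over these same 8 mice, so this match and the small differences follow from the choice. *Zbp1* was lowest in mouse 1931.

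Interferon-induced genes stood beside these. Of the 9 tested from a list of such genes, 9 were higher in CSF1 OE mice, where 6002 of all 13407 genes were higher. Of the 9, *Isg15* and *Ifit1* were called, where 0.388% of all genes were called higher. An unadjusted p under 0.05 from edgeR was found in 9 of 9, against 16.5% of all genes tested. The genotypes did not overlap in 7 of the 9, all higher, and 6.84% of all genes were higher without overlap. This list was chosen with earlier results of these data known. The 9 genes summed to 28.7 to 51.6 CPM in control against 77.4 to 189 CPM in CSF1 OE mice. Mouse 2019 was the lowest CSF1 OE mouse in this sum as in *Axl*, but mouse 1936 was far above mouse 1931 in it (189 and 90.4 CPM), while their *Axl* levels were 141 and 142 CPM. Of 11 tested genes that activated microglia are known to express, 11 were higher, from a log2 fold change of 0.009 (*Cd9*) to 2.49 (*Gpnmb*), and *Gpnmb* and *Itgax* were called. The share of all genes called higher is again 0.388%. Of these 11 genes, 5 had an unadjusted p under 0.05 from edgeR, as had 16.5% of all genes tested. The genotypes did not overlap in 5 of the 11, and 6.84% of all genes were higher without overlap. *Csf1* itself is on this list (log2 fold change 0.19). Whether *Axl* moved with these genes for a shared reason was not tested.

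**Figure D5:**
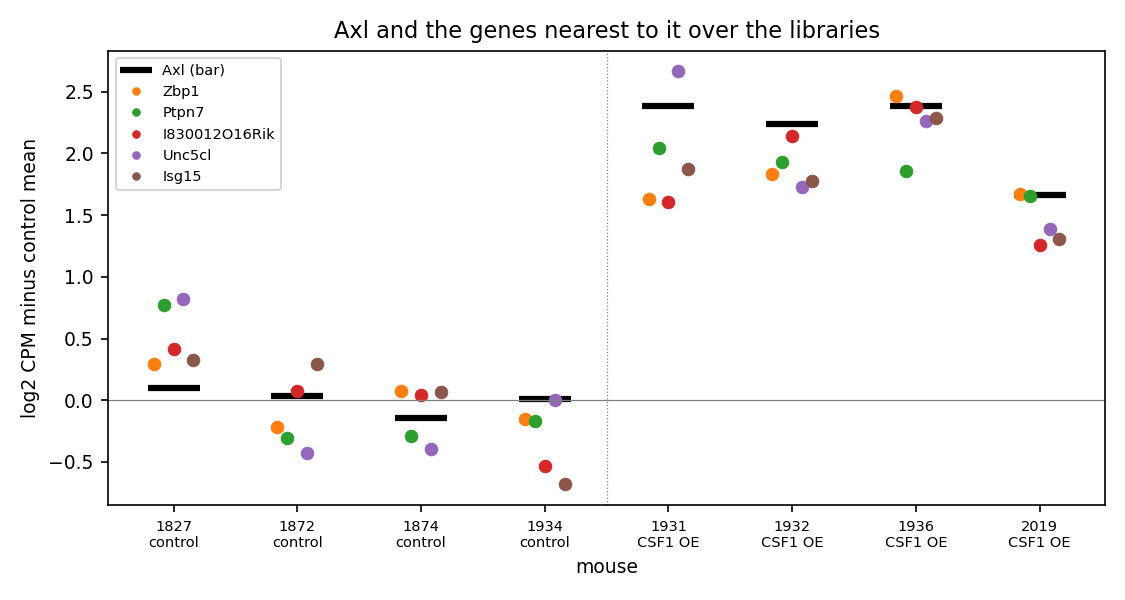
Log2 CPM of *Axl* (black bars) and of the 5 genes nearest to it (points), each relative to its own control mean, in each mouse. All 6 lie at least 1.26 above their control mean in every CSF1 OE mouse, and *Axl* is lowest of the CSF1 OE mice in mouse 2019. The 5 genes were picked for their likeness to *Axl* over these mice.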

How the data were processed

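The authors aligned 2X125 reads of unstranded TruSeq v2 libraries with Bowtie 1.0.0 and estimated counts with RSEM 1.2.7, after bcl2fastq 1.8.4 (mm10, per the submitters' processing notes). The gene annotation is not given in the sources used here. The deposited files hold RSEM expected counts per gene for each mouse, of which 27.9% to 33.9% of the nonzero values were not whole, and a deposited table of the same signal divided by 1 size factor per mouse. Counts were rounded and tested in R 4.3.3 with edgeR 4.0.16 (filterByExpr, TMM, quasi-likelihood test, genotype as the only term, Benjamini-Hochberg adjustment over 13407 genes). The study used EBSeq, not run here, and its fold thresholds were kept. DESeq2 1.42.0 and limma 3.58.1 served as alternatives. With known 2-fold changes in 200 genes, simulated for this comparison on 13407 genes, 64.5% were recovered. The simulation gave all genes the same biological coefficient of variation, 0.228. Litters are not given, so the p-values take the mice as independent, which could not be checked. Intervals cover 4 mice per genotype.

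Named genes were all 5 members, every called pathway gene, the tested gene with the highest and the lowest log2 fold change in each pathway list, the 5 genes nearest to *Axl*, *Csf1* and *Csf1r*. The members and lists were chosen with earlier results of these data known. An item of the pathway lists is not reported here. Positions and sequences are from GENCODE M21 on GRCm38, the build of mm10. Columns that matched no sample numbered 0.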

Additional observations from a re-analysis of the deposited data

Results flagged for a closer look

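None of the 5 TAM genes had a mouse flagged as far from the rest of its group. To be flagged, the gap to the nearest mouse had to exceed 0.829 of the range of the group. With 4 mice this rule can pass over mice that stand apart. Examples are mouse 1934 in *Pros1* (172 CPM against 265 to 291 CPM) and mouse 2019 in *Axl* (85.6 CPM against 128 to 142 CPM). Among 28 named genes, 56 groups of 4 mice were examined and 4 held a mouse far from the other 3, where chance flags about 1 in 20 groups. Control mouse 1934 had 24.5 CPM of *Tub*, against 7.71 to 8.65 CPM in the other control mice. The same mouse had 4.85 CPM of *Xkr8*, against 9.13 to 9.68 CPM. Control mouse 1827 had 4.10 CPM of *Ptpn7*, against 1.87 to 2.07 CPM, so 3 of the 4 control mice were closer together than the mean of *Ptpn7* shows. CSF1 OE mouse 2019 had 21.4 CPM of *Ggcx*, against 15.1 to 15.5 CPM, and was the only one of its genotype above the control mean of 19.0 CPM.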

How the results depend on the processing

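The log2 fold change of *Axl* stayed between 1.997 and 2.34 in 17 alternatives. That of *Gas6* stayed between -0.21 and -0.071 and was not called in any (edgeR, limma or DESeq2 adjusted p from 0.148 to 0.673). *Mertk* reversed to 0.17 when the animal-number range entered the fit and otherwise lay between -0.23 and -0.0015 (adjusted p from 0.339 to 0.998 over all). *Tyro3* was called in that same fit, at -0.92, and in none of the other 16 (adjusted p from 0.0321 to 0.842 over all). With terms added after seeing the data, its value was -0.38 for microglia markers and -0.13 for oligodendrocyte markers. *Pros1* reversed to -0.038 without CSF1 OE mouse 2019 and to -0.073 with oligodendrocyte markers as a term, and its adjusted p ran from 0.0364 to 0.972. Leaving out 1 mouse at a time gave 2.13 to 2.34 for *Axl*, -0.20 to -0.0015 for *Mertk*, -0.60 to -0.17 for *Tyro3*, -0.19 to -0.10 for *Gas6* and -0.038 to 0.27 for *Pros1*.

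Genes called numbered 59 with edgeR (88.1% higher), 427 with DESeq2 (63.5% higher), 19 with upper-quartile factors, 105 with limma, and 1274 with the animal-number term (23.8% higher). They numbered 371 with microglia markers and 334 with oligodendrocyte markers as a term, and 3 to 164 without 1 mouse. Pathway genes called numbered 0, but 2 with DESeq2 (*Havcr2* and *Rhbdf2*), 8 with the animal-number term, 1 with microglia markers and 1 with oligodendrocyte markers as a term. The causes were not tested. Other scalings shifted the all-gene median by less than 0.1 (log2). *Axl* was at 5.37 CPM per kb in control mice when the length was that of all its exons. No paired analysis was possible because the replicate numbers are animal numbers and no number occurs in both genotypes. With 4 mice per genotype, 64.5% of simulated 2-fold changes were recovered, so a p that misses the threshold does not show equal levels.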
